A study of Mus musculus with 10 samples.

Results

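The cell cycle inhibitors and D cyclins are 10 mouse genes that set the pace of the G1 phase of the cell cycle: the CIP/KIP inhibitors *Cdkn1a*, *Cdkn1b* and *Cdkn1c*, the INK4 inhibitors *Cdkn2a*, *Cdkn2b*, *Cdkn2c* and *Cdkn2d*, and the D cyclins *Ccnd1*, *Ccnd2* and *Ccnd3*. They were chosen by gene symbol, 10 of the 25233 entries of the deposited table that carry one. Their expression was compared between 5 RNA-seq libraries of hypertrophied hepatic stellate cells (hypHSC), the retinoid-laden, green-fluorescent cells sorted from fibrotic liver, and 5 libraries of quiescent hepatic stellate cells (qHSC), sorted by their blue retinoid fluorescence from healthy liver. The animals of both groups were C57BL/6J mice. Those that gave the hypHSCs were fed the CDAHFD, a diet rich in fat, without choline and with defined amino acids, for 13 weeks in hypHSC 1 and 2 (19 weeks of age) and for 12 weeks in hypHSC 3, 4 and 5 (18 weeks of age). Those that gave the qHSCs were on standard diet and were 36 weeks old for qHSC 1, 2 and 5 and 34 weeks old for qHSC 3 and 4. The study's methods give all animals as males and part of the standard diet animals as former breeders. They also state stronger enzymatic digestion for the CDAHFD livers and a selection of hypHSC samples by RNA integrity from fewer mice than samples, so n counts preparations, and p-values measure the spread between preparations. Diet, age, digestion and sorting gate changed together between the groups and cannot be told apart.

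D cyclins bind CDK4 or CDK6, and the complex phosphorylates the retinoblastoma protein, which frees E2F factors to start the genes of S phase. INK4 proteins bind CDK4 and CDK6 and keep the D cyclins off. CIP/KIP proteins bind whole cyclin-CDK complexes and block above all those of CDK2. Stellate cells of a healthy liver rarely divide, and liver injury is known to bring them into the cycle.

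Values are counts of reads per gene divided by a size factor of the library, called normalized counts. *Cdkn1a*, which encodes p21, was 7.4-fold higher in hypHSCs, and *Cdkn1c*, which encodes p57, was 4.3-fold higher. *Ccnd2* was 18.5-fold lower in hypHSCs, *Ccnd3* 3.15-fold lower, *Cdkn2c* (p18) 2.88-fold lower and *Cdkn2d* (p19) 2.81-fold lower. These 6 genes were differentially expressed genes (DEGs), which here means a change of 1 or more on the log2 scale and an adjusted p of 0.05 or less in limma. They were found among the 9 of the 10 genes that had 10 or more normalized counts in 5 or more libraries. Of all 14630 genes tested, 39.5% were DEGs. While 2 of the 9 rose and 4 fell, 17.8% of all genes tested rose and 21.7% fell. The groups did not overlap for these same 6 genes, while 39.5% of all genes tested had groups that did not overlap. *Cdkn1b*, *Cdkn2b* and *Ccnd1* were tested and were not DEGs, and *Cdkn2a* did not reach the filter. The median log2 fold change was -1.49 over the 9 tested genes and -0.20 over all genes tested.

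The promoters of the 4 of these 6 DEGs that are in the RefSeq promoter table (build GRCm38.p6) are shown, since they are the sequence next to the genes that moved. Each run is the 250 bases before the start farthest upstream in the table, matched to GRCm39 and written 5′ to 3′ on the strand of the gene. Capitals mark the motifs searched on both strands: the CCAAT box (CCAAT), the GC box (GGGCGG), the TATA box (TATAAA), an E2F site (TTTGGCGC, TTTCCCGC, TTTCGCGC or TTTGCCGC) and the p53 half-site.
*Cdkn1a* (chr17:29309703-29309952, plus strand): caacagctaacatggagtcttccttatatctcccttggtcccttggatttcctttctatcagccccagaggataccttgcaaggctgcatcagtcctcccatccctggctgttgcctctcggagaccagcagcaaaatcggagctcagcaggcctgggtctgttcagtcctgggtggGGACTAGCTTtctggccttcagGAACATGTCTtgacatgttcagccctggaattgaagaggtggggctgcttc
*Cdkn2c* (chr4:109523954-109524203, minus strand): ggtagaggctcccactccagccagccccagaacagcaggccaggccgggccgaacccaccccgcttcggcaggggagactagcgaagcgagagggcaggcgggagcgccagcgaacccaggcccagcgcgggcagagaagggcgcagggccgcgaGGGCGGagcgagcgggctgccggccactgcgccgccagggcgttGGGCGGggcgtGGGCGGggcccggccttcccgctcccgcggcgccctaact
*Cdkn2d* (chr9:21202506-21202755, minus strand): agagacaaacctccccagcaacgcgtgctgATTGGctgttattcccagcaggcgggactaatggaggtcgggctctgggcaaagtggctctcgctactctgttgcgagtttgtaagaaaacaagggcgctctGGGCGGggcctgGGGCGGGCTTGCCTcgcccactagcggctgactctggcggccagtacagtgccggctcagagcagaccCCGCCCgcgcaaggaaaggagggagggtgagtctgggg
*Ccnd3* (chr17:47815726-47815975, plus strand): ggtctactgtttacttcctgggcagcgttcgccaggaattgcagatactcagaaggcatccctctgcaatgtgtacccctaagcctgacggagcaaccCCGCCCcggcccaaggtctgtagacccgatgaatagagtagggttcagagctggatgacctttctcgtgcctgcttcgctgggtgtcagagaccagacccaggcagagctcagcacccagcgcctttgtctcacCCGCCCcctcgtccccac
The *Cdkn1a* run held 2 p53 half-sites, which begin 73 and 51 bases before the start, and none of the other motifs. The window before the second *Cdkn1a* start listed (chr17:29312493-29312742) held 2 GC boxes and no p53 half-site. Which start was in use was not tested. Of the 32851 promoters of the table, 7.13% held a p53 half-site in this window. The *Cdkn2c* run held 3 GC boxes and the *Ccnd3* run 2. The window before the second start listed held none of the motifs for *Cdkn2c*, and 1 GC box and 1 CCAAT box for *Ccnd3*. The *Cdkn2d* run held 3 GC boxes, 1 CCAAT box and 1 p53 half-site, which overlaps a GC box. A GC box stood in 32.7% of all promoters and a CCAAT box in 33.8%. Over the 11 starts listed for 7 of the 10 genes, 6 genes had a GC box and 3 a CCAAT box before at least 1 start. An E2F site, present in 1.86% of all promoters, was found for 1 gene, *Cdkn2a*, and a TATA box, present in 12.4%, for none. A match of letters is a description of the sequence and not of binding. *Cdkn1c*, *Ccnd1* and *Ccnd2* are not in the promoter table.

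The libraries held 30534719 to 43283589 reads on genes with a symbol in hypHSCs and 35640104 to 47317028 in qHSCs, and 3 reads, the floor of detection, equal 2.25 to 4.54 normalized counts (counting error alone). Along the first principal component, which held 62.9% of the variance, the groups were separate, and along the second, with 16.0%, hypHSC 5 lay far from the other libraries. It also had the fewest genes with a read, 14028, against 14949 in hypHSC 4 and 15703 to 16634 in the other libraries. Among the 5 hypHSC libraries it held the highest value of 4 of the 10 genes (*Cdkn1b*, *Cdkn1c*, *Cdkn2a* and *Cdkn2b*) and the lowest value of 3 (*Cdkn2d*, *Ccnd1* and *Ccnd2*), so fold changes are also given without it. Mitochondrial entries took 2.21% to 12.8% of the reads in hypHSCs and 1.25% to 1.61% in qHSCs. The labelled cell type was checked on 12 stellate cell markers, all 12 of which fell in hypHSCs (median log2 fold change -5.74, summed 6973 to 21584 normalized counts in hypHSCs and 642184 to 1213066 in qHSCs). Several of these, among them *Lrat*, *Gfap* and *Des*, are given by the study as markers of quiescent stellate cells. Other stellate cell genes did not fall in the study's own results: it reports *Vim* as higher in hypHSCs and *Acta2*, *Col1a1*, *Col1a2* and *Col3a1* as unregulated. *Lrat*, the enzyme that stores retinol as retinyl ester, remained at 476 to 2312 normalized counts in hypHSCs, against 74761 to 136938 in qHSCs. *Gfap* was listed at 0 in hypHSC 4 and 5, and *Ngfr* at 0 in hypHSC 5. Of 15 macrophage markers, 12 rose in hypHSCs (median log2 fold change 4.41), and their summed level was 1066570 to 1511196 normalized counts in hypHSCs and 5920.0 to 129584 in qHSCs. *Itgam* was listed at 0 in qHSC 5, and no macrophage marker was at 0 in a hypHSC library. qHSC 4 and qHSC 1, with 129584 and 59263, lay above the other qHSC libraries (5920.0 to 11550.5). The part of macrophage transcripts in the results on the 10 genes was not tested. In bulk libraries, fewer cells of a type and less RNA per cell cannot be told apart.

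**Figure D1:**
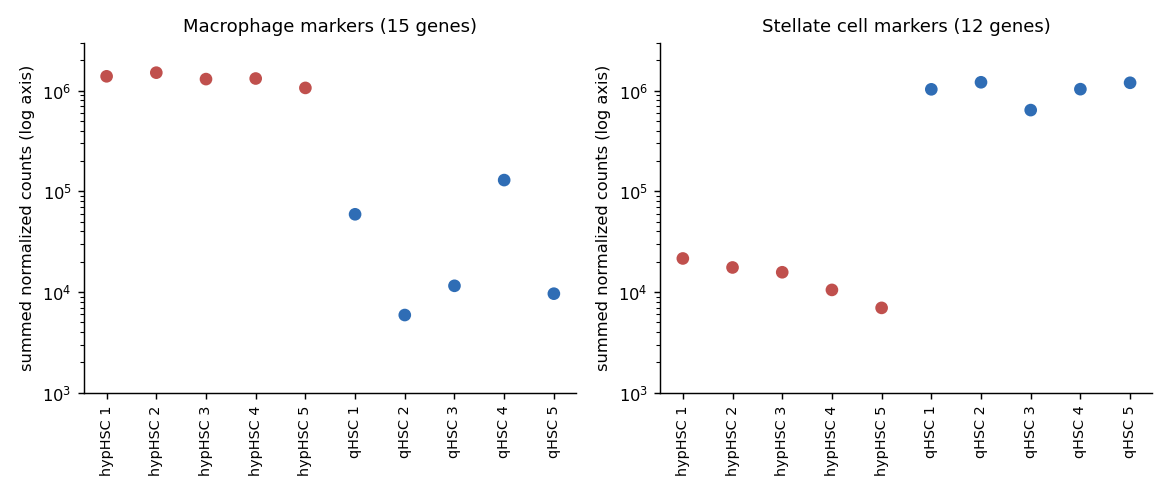
Summed normalized counts (log axis) of 15 macrophage markers (left) and 12 stellate cell markers (right) in each library, with hypHSCs in red and qHSCs in blue. Several of the stellate cell markers are known from quiescent cells. Macrophage markers summed to at least 1066570 in every hypHSC library and to at most 129584 in a qHSC library, and stellate cell markers to at most 21584 and at least 642184.

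Other cell types were read from shorter lists. The 3 cholangiocyte markers tested rose in hypHSCs (summed 436 to 2711 normalized counts over the 4 markers, against 4.72 to 56.1 in qHSCs), as did the 3 neutrophil markers tested (summed 1788 to 7753 over the 6 markers, against 10.5 to 391.9), where *Ly6g*, *Mpo* and *Elane*, which define the lineage, were listed at 0 in at least 1 library of each group. Of 6 endothelial markers tested, 1 rose and 2 fell (2 and 1 with qHSC 1 and qHSC 4 left out). The 6 hepatocyte genes (summed 11294 to 83279 in hypHSCs and 19814 to 72955 in qHSCs) and the 2 genes tested of 8 markers of T, NK and B cells were not DEGs. Among the markers below the filter, the NK marker *Klrb1c* was at 8.32 to 139 normalized counts in hypHSCs and at 0 to 0.75 in qHSCs, under the floor of detection, and the groups did not overlap. Which cells the 10 genes were expressed in was not tested.

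*Cdkn1a* (chromosome 17, 29309950 to 29319696, GRCm39) encodes p21, the inhibitor that p53 induces to hold cells before S phase. It was measured at 12532, 15005, 13361, 20690.3 and 18405 normalized counts in hypHSC 1 to 5 and at 2192, 1668, 1138, 3390.2 and 3046 in qHSC 1 to 5. Every hypHSC library lay above every qHSC library, and the lowest hypHSC value was 3.7 times the highest qHSC value. The means were 15999 ± 3456 (SD, n = 5) in hypHSCs and 2287 ± 936 (SD, n = 5) in qHSCs. The log2 fold change was 2.89 (SE 0.29, limma adjusted p = 1.56e-05), and the exact two-sided permutation test over all arrangements of 5 libraries against 5 gave p = 0.00794, the smallest it can give. It was a DEG under all 24 alternatives, with 2.83 without hypHSC 5. qHSC 4 and qHSC 5 were the highest among the qHSCs, of which qHSC 4 had the highest macrophage marker sum and qHSC 5 one of 9646. With qHSC 1 and qHSC 4 both left out the log2 fold change was 3.13. Without strand, reads from *Cdkn1a* cannot be told apart from those of the antisense genes that cover 12.5% of its exon bases.

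*Cdkn1c* (chromosome 7, 143012076 to 143014787) encodes p57, an imprinted inhibitor known from embryonic tissues and from cells that leave the cycle. It was low, at 83.5, 60.0, 69.8, 157 and 328 normalized counts in hypHSCs and at 9.96, 33.2, 25.2, 43.6 and 28.5 in qHSCs, from 11 to 217 reads per library. All hypHSC libraries lay above all qHSC libraries, with hypHSC 5 the highest. The log2 fold change was 2.11 (SE 0.57, limma adjusted p = 0.0100), and 1.72 without hypHSC 5. When libraries were scaled on *Hprt*, *Pgk1* and *Actb*, reference genes of the study's qPCR, it was 1.19 with an adjusted p of 0.131 and no longer a DEG. Antisense gene models cover 29% of its exon bases.

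*Cdkn1b* (chromosome 6, 134897362 to 134902488) encodes p27, the inhibitor known for keeping cells out of the cycle, which is controlled mostly by protein degradation. The hypHSC libraries held 586, 579.7, 398, 769 and 1922 normalized counts and the qHSC libraries 1016, 899.8, 861, 677 and 855. The groups overlapped: hypHSC 5 lay above all qHSCs, hypHSC 4 among them and the other hypHSCs below them. The log2 fold change was -0.24 (SE 0.36, limma adjusted p = 0.611) with all libraries. Without hypHSC 5 it was -0.59 with an adjusted p of 0.0349, below the threshold of fold change for a DEG.

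**Figure D2:**
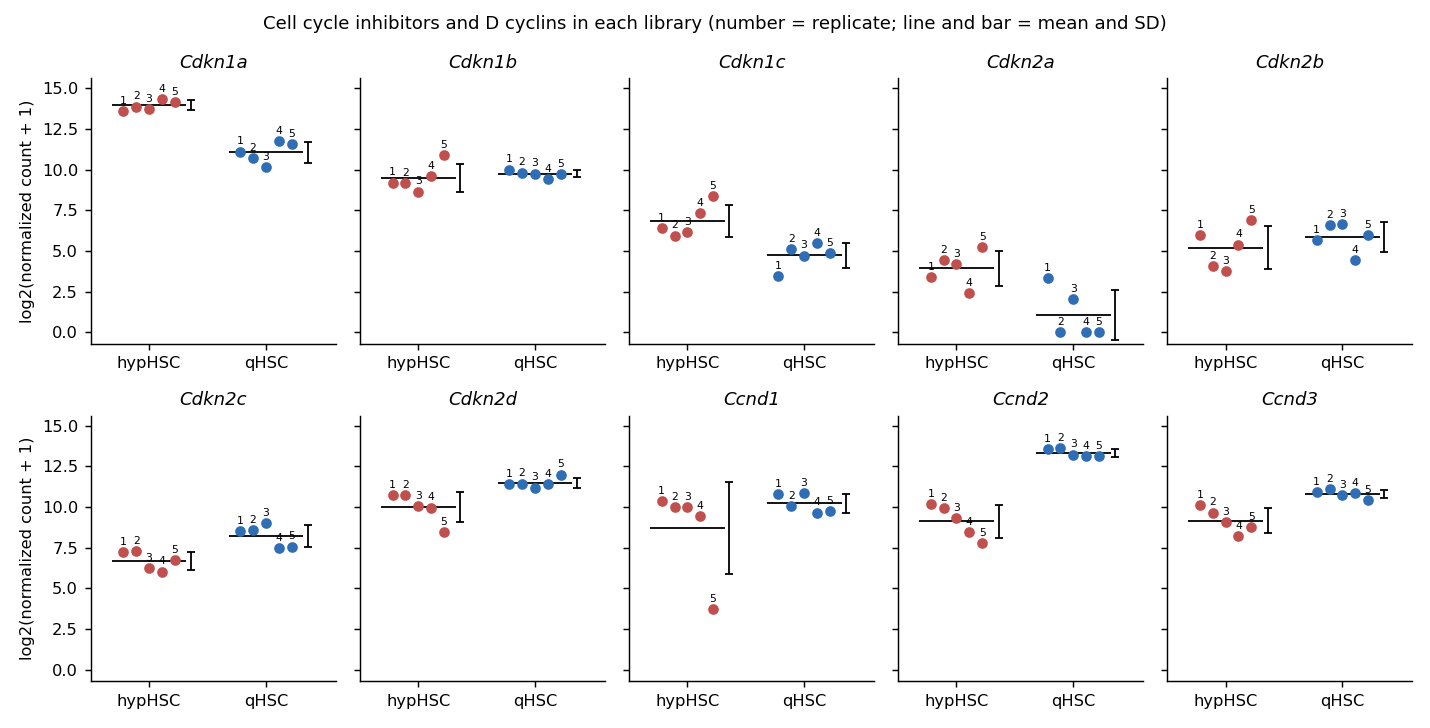
log2(normalized count + 1) of the 10 genes in each hypHSC (red) and qHSC (blue) library, with the replicate number above each point, the group mean as a line and the SD as a bar (n = 5 libraries). *Cdkn1a* and *Cdkn1c* lie higher in all hypHSCs and *Cdkn2c*, *Cdkn2d*, *Ccnd2* and *Ccnd3* lower in all hypHSCs, while *Ccnd1* is at 12.1 normalized counts in hypHSC 5 and at least 679 in the other hypHSCs.

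Among the INK4 inhibitors, *Cdkn2d* (chromosome 9, 21199706 to 21202505), which encodes p19INK4d, was the most abundant per length in every library. It was at 1675, 1697, 1067, 988 and 348 normalized counts in hypHSCs and at 2670.0, 2752, 2321, 2678 and 4051 in qHSCs. Every hypHSC library lay below every qHSC library, with hypHSC 5 the lowest. Its log2 fold change was -1.49 (SE 0.39, limma adjusted p = 0.00821), and -1.11 without hypHSC 5.

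*Cdkn2c* (chromosome 4, 109518074 to 109523953), which encodes p18INK4c, held 147, 152, 74.8, 64.0 and 104 normalized counts in hypHSCs and 364, 379, 512, 173 and 188 in qHSCs. The groups were separate, and the gap between the highest hypHSC library, at 152, and the lowest qHSC library, at 173, was narrow. The log2 fold change was -1.53 (SE 0.40, limma adjusted p = 0.00813), and stayed at -1.53 without hypHSC 5.

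*Cdkn2b* (chromosome 4, 89224526 to 89229281) encodes p15INK4b, the inhibitor that transforming growth factor beta induces in epithelial cells. Its 60.6, 15.53, 12.5, 40.9 and 118 normalized counts in hypHSCs overlapped with 48.9, 95.4, 98.4, 20.5 and 60.7 in qHSCs. Its log2 fold change was -0.64 (SE 0.68, limma adjusted p = 0.462), and the means (49.5 ± 43.0 and 64.8 ± 32.8, SD, n = 5) differed by less than either SD. Without hypHSC 5 the log2 fold change of *Cdkn2b* was -1.07, and without hypHSC 3 it was -0.28, and the gene was not a DEG in either fit.

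*Cdkn2a* (chromosome 4, 89192710 to 89212856) encodes p16INK4a and, in another reading frame, p19ARF, which a count per gene does not separate, and it is widely used as a marker of senescence. It was near the floor, with 7, 20, 21, 4 and 24 reads in hypHSCs (at most 36.3 normalized counts) and 10, 0, 4, 0 and 0 reads in qHSCs (0 to 9.05 normalized counts). All 5 hypHSC libraries were above the floor of 3 reads, 2 by a few reads only, and 3 qHSC libraries had none, which at the floor of 3 reads allows 2.25 to 2.57 normalized counts. The groups overlapped, since qHSC 1 exceeded hypHSC 4, and the exact two-sided permutation test on log2(normalized count + 1) gave p = 0.0159. *Cdkn2a* was outside the 14630 genes tested. Where the filter was set at 1 normalized count in 1 library, its log2 fold change in limma was 2.85 with an adjusted p of 0.0187. With so few reads the size of this difference depends on the count of 1 that is added before taking the logarithm.

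*Ccnd2* (chromosome 6, 127102129 to 127128011), cyclin D2, had the largest fold change of the 9 tested genes. It was at 1145, 981, 629.5, 345 and 216 normalized counts in hypHSCs and at 12095, 12535, 9509.8, 8956 and 8849.8 in qHSCs. The lowest qHSC library was 7.73 times the highest hypHSC library, and the qHSCs lay close together (SD of 0.24 on the log2 scale, n = 5). The means were 664 ± 399 (SD, n = 5) in hypHSCs and 10389 ± 1783 (SD, n = 5) in qHSCs. The log2 fold change was -4.21 (SE 0.41, limma adjusted p = 1.19e-05), and -3.87 without hypHSC 5. *Ccnd2* was a DEG under all 24 alternatives, with log2 fold changes from -5.14 to -3.87. Antisense gene models cover 15.8% of its exon bases, of which *9330179D12Rik* was at 104 normalized counts or fewer in every library.

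*Ccnd3* (chromosome 17, 47815976 to 47910618), cyclin D3, which is known from lymphoid and muscle cells, held 1106, 804, 536, 289.6 and 427 normalized counts in hypHSCs and 1936, 2180.4, 1686, 1860.3 and 1386 in qHSCs. The groups did not overlap, and the highest hypHSC library, hypHSC 1, was at 1106 against 1386 in the lowest qHSC library. *Ccnd3* had a log2 fold change of -1.65 (SE 0.33, limma adjusted p = 0.0016), and -1.55 without hypHSC 5.

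*Ccnd1* (chromosome 7, 144483668 to 144493662), cyclin D1, is the D cyclin known for its response to growth factors and for liver regeneration. It was at 1315, 1016, 1024, 679 and 12.1 normalized counts in hypHSCs and at 1773, 1040.3, 1835, 802 and 865 in qHSCs. The value of hypHSC 5 rests on 8 reads, while the other hypHSC libraries had 647 to 1231, and these overlapped with the qHSCs. The log2 fold change was -1.52 (SE 1.09, limma adjusted p = 0.272), and -0.27 with an adjusted p of 0.465 without hypHSC 5. Scaled on *Hprt*, *Pgk1* and *Actb*, it was -2.46 with an adjusted p of 0.036, its only call as a DEG among the alternatives. *LTO1*, which overlaps *Ccnd1* on the other strand over 48.4% of the exon bases of *Ccnd1*, was at 2146 normalized counts in hypHSC 5 and at 1455 to 2144 in the other hypHSCs.

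**Figure D3:**
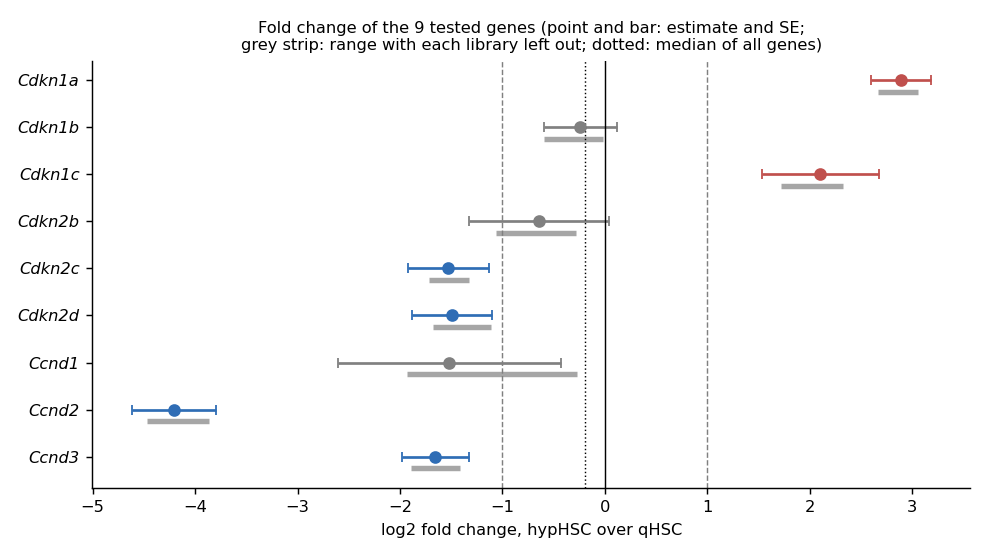
log2 fold change (hypHSC over qHSC) of the 9 tested genes with the limma SE, rising DEGs in red, falling DEGs in blue and other genes in grey, and as a grey strip the range when each library was left out in turn. Dashed lines mark the DEG threshold and the dotted line the median of all genes tested, -0.20. The strip of *Ccnd1* runs from -1.94 to -0.27, and those of the 6 DEGs stay outside the dashed lines.

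Levels of different genes were compared per length, as FPKM recomputed from recovered reads, summed exon length and the reads on genes with a symbol. The length was that of all annotated exons of a gene together, for instance 9409 bases for *Ccnd2*, 9245 for *Ccnd3* and 4783 for *Ccnd1*. Transcripts in use can be shorter, by different amounts in different genes, so the orders and shares below rest on this length. In hypHSCs the order was *Cdkn1a* (62.6 ± 9.31 FPKM), *Cdkn2d* (17.0 ± 8.58), *Cdkn1b* (4.26 ± 2.60), *Ccnd1* (4.21 ± 2.67), *Ccnd2* (1.73 ± 1.07), *Ccnd3* (1.66 ± 0.893), *Cdkn1c* (1.47 ± 1.02), *Cdkn2b* (0.41 ± 0.325), *Cdkn2c* (0.409 ± 0.158) and *Cdkn2a* (0.354 ± 0.222; mean ± SD, n = 5). *Cdkn1a* was the highest in every hypHSC library, and *Cdkn2d* was above *Cdkn1b* in 4 of the 5. From *Cdkn1b* down, the ranges of mean ± SD of neighbours in this order overlapped. In qHSCs the order was *Cdkn2d* (52.7 ± 9.15 FPKM), *Ccnd2* (33.8 ± 6.19), *Cdkn1a* (11.4 ± 4.45), *Ccnd1* (8.16 ± 3.56), *Ccnd3* (6.00 ± 1.09), *Cdkn1b* (5.79 ± 0.891), *Cdkn2c* (1.57 ± 0.755), *Cdkn2b* (0.731 ± 0.387), *Cdkn1c* (0.397 ± 0.174) and *Cdkn2a* (0.0654 ± 0.104). Here *Cdkn2d* stood above *Ccnd2*, and *Ccnd2* above the rest, in every library. The ranges of mean ± SD of neighbours overlapped from *Cdkn1a* to *Cdkn1b* and from *Cdkn2c* to *Cdkn1c*. Among all genes with a length, *Cdkn1a* ranked 585 by mean FPKM in hypHSCs and 2410 in qHSCs, and *Ccnd2* ranked 6190 and 1066.

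Shares within a family do not depend on how libraries are scaled, but they depend on the exon length given to each gene. *Cdkn1a* held 84.1% to 94.9% of the summed FPKM of the CIP/KIP inhibitors in hypHSCs and 48.4% to 76.9% in qHSCs, where *Cdkn1b* held 20.4% to 48.6%. *Ccnd2* held 17.5% to 32.1% of the summed FPKM of the D cyclins in hypHSCs and 64.1% to 74.6% in qHSCs. In hypHSC 1 to 4 *Ccnd1* was the leading D cyclin per length, with 52.6% to 67.6%, against 12.2% to 24.3% in qHSCs. In hypHSC 5 the leading one was *Ccnd3*, with 64.4%. In normalized counts, without length, *Ccnd1*, *Ccnd2* and *Ccnd3* were at 1315, 1145 and 1106 in hypHSC 1. Without strand, reads of *Ccnd1* cannot be told apart from those of *LTO1* over 48.4% of the exon bases of *Ccnd1*. *Cdkn2d* held 92.1% to 97.9% of the INK4 FPKM in qHSCs, 95.0% to 95.6% in hypHSC 1 to 4 and 69.8% in hypHSC 5. The summed FPKM of the D cyclins was 1.498 to 12.5 in hypHSCs and 35.9 to 57.8 in qHSCs, that of the INK4 inhibitors 6.27 to 26.2 and 49.3 to 70.2, and that of the CIP/KIP inhibitors 54.5 to 81.9 and 12.7 to 22.5. Within a library, *Cdkn1a* was 17.0 to 132 times *Ccnd2* per length in hypHSCs and 0.186 to 0.589 times in qHSCs.

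**Figure D4:**
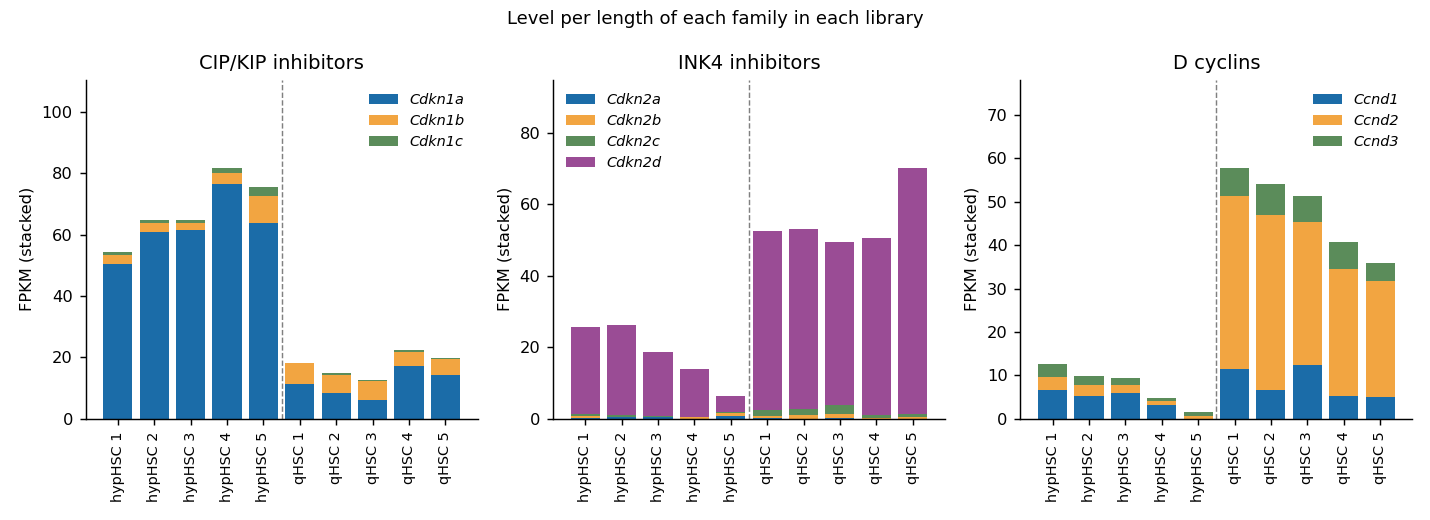
FPKM of the members of each family stacked per library, hypHSC 1 to 5 left of the dashed line and qHSC 1 to 5 right of it. The CIP/KIP bars, mostly *Cdkn1a*, reach 54.5 to 81.9 in hypHSCs and 12.7 to 22.5 in qHSCs, while the D cyclin bars, mostly *Ccnd2* in qHSCs, reach 1.498 to 12.5 and 35.9 to 57.8.

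The hypHSC libraries came from 2 lengths of diet. For *Ccnd2*, *Ccnd3*, *Cdkn2c* and *Cdkn2d*, the hypHSC libraries at 13 weeks lay above all those at 12 weeks, for instance at 1145 and 981 against 629.5, 345 and 216 normalized counts of *Ccnd2*. This was so, in either direction, for 4 of the 9 tested genes and for 21.9% of all genes tested. The 12-week libraries include hypHSC 5. Mitochondrial entries took 12.8% and 7.27% of the reads in the 13-week libraries and 2.21% to 3.42% in the 12-week libraries. Length of diet and this difference between libraries cannot be told apart. With the hypHSCs at 12 weeks only, the log2 fold changes against qHSCs were -4.83 for *Ccnd2*, -2.14 for *Ccnd3*, -1.89 for *Cdkn2c*, -1.99 for *Cdkn2d*, 3.02 for *Cdkn1a* and 2.55 for *Cdkn1c*, all DEGs.

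The kinases that D cyclins activate are CDK4 and CDK6. *Cdk4* was at 1012 to 2850 normalized counts in hypHSCs and 2913 to 3175 in qHSCs, all hypHSCs below all qHSCs, and its log2 fold change was -0.50 (SE 0.27, limma adjusted p = 0.147). Without hypHSC 5, its lowest library, the log2 fold change of *Cdk4* was -0.21. *Cdk6* was at 3278, 3347, 3341, 7872 and 20129.6 in hypHSCs and at 1875 to 2673 in qHSCs. Its log2 fold change of 1.39 (SE 0.46, limma adjusted p = 0.0266) made it a DEG, but without hypHSC 5 it was 0.93 and no longer one. Of the 9 CDK partners, 3 rose and 6 were not DEGs, while 17.8% of all genes tested rose and 21.7% fell. The count of 3 was 2 without hypHSC 5 or with qHSC 1 and qHSC 4 left out. The 3 that rose with all libraries were *Cdk6* and the E cyclins, which activate CDK2. *Ccne1* had a log2 fold change of 3.20 and *Ccne2* of 1.94 (limma adjusted p = 0.00352 and 0.00103). The rise of *Ccne1* rests on low values, from 26 to 85 reads in hypHSCs and 1 to 21 reads in qHSCs. For *Ccne1*, qHSC 4 and qHSC 5, at 2.57 and 0.75 normalized counts, lay at or under the floor of detection. The groups did not overlap. *Ccne2* was at 271 to 815 normalized counts in hypHSCs and 82.2 to 149 in qHSCs. On the scaling by *Hprt*, *Pgk1* and *Actb*, 1 of the 9 rose and 5 fell, while 1472 of all 14630 genes tested rose and 6990 fell. There *Cdk4* was a lower DEG (-1.43, limma adjusted p = 9.37e-05) and *Cdk6* was not a DEG (0.45, limma adjusted p = 0.521). The median log2 fold change of all genes tested was -1.12 by that scaling.

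Downstream, of 12 tested genes of the RB and E2F list 5 rose (*Rb1*, *E2f1*, *E2f2*, *E2f3* and *E2f7*) and 7 were not DEGs. Among all genes tested 17.8% rose and 21.7% fell. *E2f2*, an activating E2F, was at 168 to 443 normalized counts in hypHSCs and 0.85 to 39.8 in qHSCs. Its log2 fold change was 4.21 (SE 0.75, limma adjusted p = 0.000793). *Rb1* had a log2 fold change of 1.07 (SE 0.39, limma adjusted p = 0.039), and 0.99 without hypHSC 5, where it was not a DEG. The count of 5 was 4 without hypHSC 5 and 3 with qHSC 1 and qHSC 4 left out. With the scaling by the 3 reference genes 3 of the 12 rose and 4 fell, while 1472 of all 14630 genes tested rose and 6990 fell. Of 26 proliferation genes, 20 rose and 6 were not DEGs, with a median log2 fold change of 2.10. The 6 were the replication genes *Mcm2* (-1.29), *Mcm3* (0.53), *Mcm4* (-0.58) and *Mcm7* (-0.04), and *Bub1b* (1.02) and *Plk1* (1.52), with log2 fold changes in brackets. *Mcm5* (1.96) and *Mcm6* (1.96) rose. *Mki67*, the standard mark of cycling cells, was at 579 to 873 normalized counts in hypHSCs and 46.0 to 100.4 in qHSCs. On the log2 scale *Mki67* rose by 3.53 (SE 0.26, limma adjusted p = 1.76e-06). *Top2a*, which untangles DNA before mitosis, was at 515 to 1798 and 57.9 to 188, a log2 fold change of 2.99 (SE 0.38, limma adjusted p = 8.15e-05). The mitotic genes *Birc5* (4.33), *Bub1* (3.81) and *Cenpe* (3.63) had the largest log2 fold changes of the list. The count was 22 without hypHSC 5 and 20 with qHSC 1 and qHSC 4 left out, and 14 rose and 2 fell when scaled on *Hprt*, *Pgk1* and *Actb*. *Cdkn1a* and *Mki67* were both higher in each hypHSC library than in any qHSC library, and whether the same cells carried both was not tested.

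**Figure D5:**
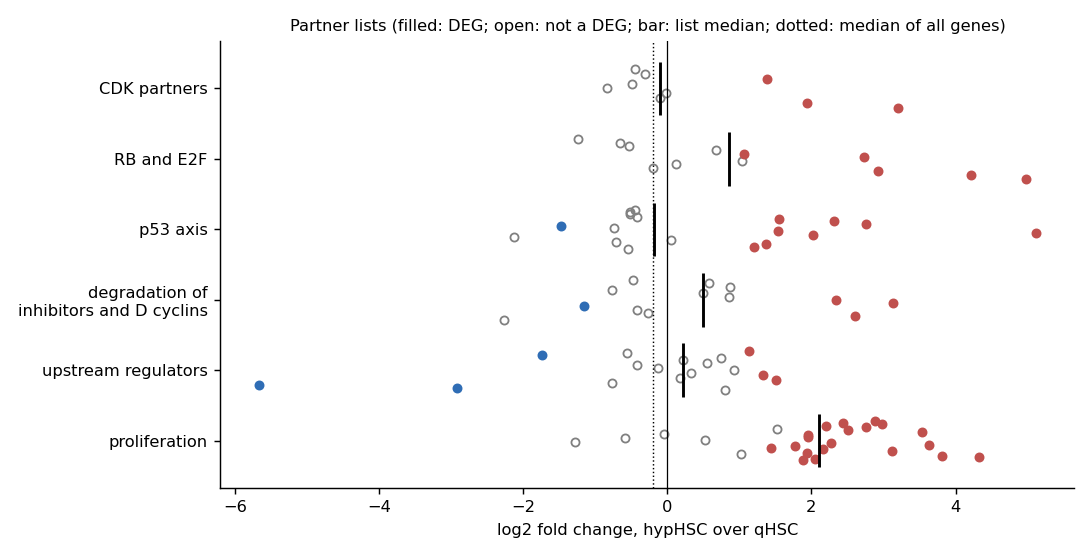
log2 fold change (hypHSC over qHSC) of each tested gene of 6 lists of partners and regulators, filled where it was a DEG (red higher, blue lower) and open where not, with the list median as a black bar and the median of all genes tested, -0.20, as a dotted line. In the proliferation list 20 of 26 genes were higher DEGs and the median was 2.10, while the medians of the CDK partners and the p53 axis were -0.10 and -0.18, the second turning to 0.34 without hypHSC 5.

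Of 18 genes of the p53 axis, which drives *Cdkn1a*, 8 rose, 1 fell and 9 were not DEGs, with a median log2 fold change of -0.18. Among all genes tested 17.8% rose and 21.7% fell, with a median of -0.20. Without hypHSC 5 the median of the list was 0.34 (-0.12 over all genes tested), with 8 higher and 1 lower, and with qHSC 1 and qHSC 4 left out it was 0.03, with 7 higher and 1 lower. *Trp53* itself was at 646 to 1731 normalized counts in hypHSCs and 1299 to 1871 in qHSCs (log2 fold change -0.51, SE 0.25, limma adjusted p = 0.107). *Mdm2*, both target and inhibitor of p53, was at 1948, 2817, 2708, 3628 and 2157 in hypHSCs and at 725 to 1052 in qHSCs, and rose by 1.53 (SE 0.20, limma adjusted p = 9.53e-05). The largest rises were those of *Gdf15*, a stress cytokine, by 5.11, *Plk2* by 2.76 and *Plk3* by 2.32 on the log2 scale. *Plk2* was at 6822 to 21460.4 normalized counts in hypHSCs and 1431 to 3283 in qHSCs. *Phlda3* was the gene that fell (-1.48). When scaled on *Hprt*, *Pgk1* and *Actb*, 3 of the 18 rose and 8 fell, and *Mdm2* (0.59, limma adjusted p of 0.0829) was not a DEG. By that scaling 1472 of all 14630 genes tested rose and 6990 fell.

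A list of 13 genes covered the ubiquitin machinery that acts on the inhibitors and D cyclins, including the deubiquitinases *Usp2* and *Usp28*. Of the 13, 3 rose and 1 fell, with a median log2 fold change of 0.50, while 17.8% of all genes tested rose and 21.7% fell. *Skp2*, which marks p27 for degradation, was at 286 to 541.4 normalized counts in hypHSCs and 158 to 228 in qHSCs. Its log2 fold change of 0.87 (SE 0.25, limma adjusted p = 0.0147) stayed below the DEG threshold and was -0.06 when scaled on *Hprt*, *Pgk1* and *Actb*. Its cofactor *Cks1b* rose by 2.60 (SE 0.35, limma adjusted p = 0.000113), from 348 to 662 normalized counts in qHSCs to 1519 to 6891 in hypHSCs. The others were *Dtl* (3.13) and *Fbxo31* (2.34), which rose, and *Ddb1* (-1.15), which fell. Both rises rest on low values. *Dtl* was at 46.9 to 133 normalized counts in hypHSCs and 0 to 54.3 in qHSCs, and the groups overlapped. *Fbxo31* was at 20.8 to 54.5 in hypHSCs and 1.5 to 14.2 in qHSCs, there from 2 to 18 reads. Neither without hypHSC 5 nor with qHSC 1 and qHSC 4 left out was any of the 13 a lower DEG, *Ddb1* included, while the count of higher DEGs was 3 in both. When scaled on *Hprt*, *Pgk1* and *Actb*, 1 of the 13 rose and 6 fell, while 1472 of all 14630 genes tested rose and 6990 fell.

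Of 17 upstream regulators, 3 rose and 3 fell, against 17.8% and 21.7% of all genes tested. *Myc*, which represses *Cdkn1a* and *Cdkn2b* with its partner encoded by *Zbtb17*, was at 1923 to 6316 normalized counts in hypHSCs and 1754 to 3020.3 in qHSCs (log2 fold change 0.22, SE 0.30, limma adjusted p = 0.582). The genes that fell were *Ets1* (-5.66), *Cbx7* (-2.91), a Polycomb protein known for repressing *Cdkn2a*, and *Smad3* (-1.74), which carries transforming growth factor beta signals (log2 fold changes). *Cbx7* was at 16.6 to 183 normalized counts in hypHSCs and 433 to 728 in qHSCs. *Ets1* was listed at 0 in hypHSC 4 and hypHSC 5 and at 209 to 452 in qHSCs. *Ezh2* (1.51), *Foxo3* (1.33) and *Zbtb17* (1.14) rose. The count of higher DEGs was 2 without hypHSC 5, 1 with qHSC 1 and qHSC 4 left out and 1 with the libraries scaled to the same total, while 3, 3 and 4 fell. On the scaling by *Hprt*, *Pgk1* and *Actb*, 6 of the 17 fell and the others were not DEGs. By that scaling 1472 of all 14630 genes tested rose and 6990 fell.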

How the data were processed

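RNA from sorted hypHSCs and qHSCs was reverse-transcribed from its poly(A) tail, amplified and sequenced without keeping the strand. Per the labels and the study's methods, the authors mapped reads with STAR (2.7.5a) to mm39 and counted them per gene with featureCounts (Subread 1.5.0). The authors deposited a signal for each gene, the count divided by DESeq2 size factors (0.661 to 1.20 in hypHSCs, 1.10 to 1.33 in qHSCs). Whole reads were recovered for 99.993% to 100% of values (tolerance 0.02 reads) and were used for depth, FPKM, DESeq2 (1.42.0) and edgeR (4.0.16, quasi-likelihood). log2(normalized count + 1) was compared with limma (3.58.1, intensity trend, R 4.3.3), Benjamini-Hochberg adjusted over the 14630 named genes at 10 or more normalized counts in 5 or more of the 10 libraries. The added 1 understates changes of low genes. Exon lengths came from GENCODE (release 39) for 91.0% of symbols. The fit was tested on simulated counts.

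The 10 genes and the lists were chosen with earlier results of these data known. Partner genes with values are *Cdk4*, *Cdk6*, *Rb1*, *Trp53*, *Mdm2*, *Myc*, *Skp2*, *Mki67*, *Top2a* and, per list, the 3 DEGs with the largest change among those whose mean was 100 normalized counts or more in a group and groups that do not overlap. *LTO1*, *9330179D12Rik*, *Ccne1*, *E2f1*, *E2f3*, *E2f7*, *Phlda3*, *Dtl*, *Fbxo31*, *Ddb1*, *Ezh2*, *Foxo3*, *Zbtb17* and *Klrb1c* were named after their values were seen. So were *Bub1b*, *Plk1*, *Mcm2*, *Mcm3*, *Mcm4*, *Mcm5*, *Mcm6* and *Mcm7*. Entries without a symbol were used in 1 alternative only.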

Additional observations from a re-analysis of the deposited data

Results flagged for a closer look

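Of 20 groups of 5 libraries (10 genes in 2 groups), 1 held a library far from the others by Dixon's test on log2(normalized count + 1), where chance flags about 1 in 20. This was *Ccnd1* in hypHSCs: hypHSC 5, at 12.1 normalized counts (8 reads), was separated from the nearest hypHSC library by 0.857 of the range of the group, above the critical value of 0.71. In the same library *Cdk6* was at 20129.6 normalized counts, the highest of the 10 libraries.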

How the results depend on the processing

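The 2 rises and 4 falls among the 10 genes were recomputed under 24 alternatives, of which 10 left out 1 library each. With each library left out, the counts stayed at 2 higher and 4 lower. Scaled on *Hprt*, *Pgk1* and *Actb*, 1 gene was higher, since *Cdkn1c* (1.19) was lost, and 5 were lower, since *Ccnd1* (-2.46) was gained. That scaling moved the median log2 fold change of all genes tested from -0.20 to -1.12, and scaling to the same total moved it to -0.54, with 2022 DEGs higher and 4225 lower in place of 2602 and 3177 (1472 and 6990 on the reference genes). Relative to these medians *Cdkn1a* (1.95 and 2.53) remained above and *Ccnd2* (-5.14 and -4.56) below. *Cdkn1b* turned from -0.24 to 0.0616 in edgeR on recovered reads (adjusted p of 0.912), without a call in either. Of 216 pairs of gene and alternative, 213 kept direction and call. Lowering the filter, adding the replicate block or including entries without a symbol cannot alter a fold change, so there only the call could move. With the filter lowered to 1 normalized count in 1 library, *Cdkn2a* was also a higher DEG. Replicate numbers did not pair the samples (correlations of deviations from 0.008 to 0.129, 1 number above 0.1, and 1 of the 5 numbers correlating best with itself): with the replicate block, 2 genes were higher and 4 lower, with the adjusted p of *Cdkn2d* at 0.0202, and 5786 DEGs stood against 5779. Leaving out qHSC 1 and qHSC 4 together, chosen after seeing the data, changed no call among the 10 genes. Depth limits *Cdkn2a*, *Cdkn2b* and *Cdkn1c*, which had at most 217 reads in a library.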
